A study of Mus musculus with 2 samples.

Results

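The Mir29 family of the mouse comprises 4 microRNA (miRNA) genes, Mir29a, Mir29b-1, Mir29b-2 and Mir29c, all of which were among the 1973 miRNA genes counted here. The members were taken by symbol from GENCODE M21, the gene annotation of the mm10 assembly. They were measured by microRNA sequencing in neural tube, the embryonic precursor of brain and spinal cord, dissected at embryonic day 12.5 from healthy mouse embryos of strain B6NCrl. The single group held 2 biological replicates, replicate 1 from a pool of 120 embryos and replicate 2 from a pool of 88, with both sexes in each pool. No allele or agent is named for either pool, and no second age or tissue was part of these samples. The known postnatal rise of the family could therefore not be measured, and the values below are levels at a single embryonic age.

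A miRNA gene is transcribed as part of a longer RNA, from which a hairpin is cut. Each hairpin yields a strand from its 5′ arm and a strand from its 3′ arm, and the strand that enters an Argonaute protein pairs with messenger RNAs mainly through its seed, bases 2 to 8. In the Mir29 family the 3′ strand is the principal product. Its known targets include messages for collagens and other extracellular matrix proteins, for the DNA methyltransferases that set new methylation marks, and for pro-apoptotic BH3-only proteins in maturing neurons. The family is known for its high level in the postnatal brain.

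The mature strands of the members are shown because they determine how reads can be assigned among the 4 genes. They are from RefSeq (GRCm38.p6, the mm10 assembly), where all 4 genes matched by symbol and had 8 strands in all. The lines below give the 3′ strands, 5′ to 3′, with the seed in capitals.
miR-29a-3p (Mir29a): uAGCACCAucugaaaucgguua
miR-29b-3p (Mir29b-1 and Mir29b-2): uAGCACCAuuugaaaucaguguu
miR-29c-3p (Mir29c): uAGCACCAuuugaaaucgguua

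All 4 genes carried the same seed. Among 1738 mature strands in the RefSeq table, bases 2 to 8 read AGCACCA in 4, or 0.230%, and these were the 4 family strands. With positions counted from 1 at the 5′ end, miR-29a-3p differed from miR-29c-3p by 1 substitution in 22 positions, C10U. The change from miR-29c-3p to miR-29b-3p took 3 substitutions in the 22 positions compared, G18A, U21G and A22U, and miR-29b-3p was 1 base longer at 23. From miR-29a-3p to miR-29b-3p the substitutions were 4. The difference among the 3′ strands thus lay outside the seed. The last 6 bases of miR-29b-3p, AGUGUU, are a sequence known to direct this miRNA to the nucleus. Of the 1738 strands, 3 (0.173%) ended in those letters: miR-29b-3p at both of its genes and miR-92b-5p.

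The 3′ strand of Mir29b-1 was identical in all 23 bases to that of Mir29b-2, so a read of it matches both places. The 5′ strands, by contrast, separate these 2 genes. They are given with their own bases 2 to 8 in capitals.
miR-29b-1-5p (Mir29b-1): gCUGGUUUcauauggugguuua
miR-29b-2-5p (Mir29b-2): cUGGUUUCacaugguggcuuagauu
miR-29a-5p (Mir29a): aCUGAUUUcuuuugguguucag
miR-29c-5p (Mir29c): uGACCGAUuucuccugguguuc

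With miR-29b-2-5p shifted by 1 base, it was identical to miR-29b-1-5p at 19 of 21 positions. The 2 substitutions from miR-29b-1-5p to miR-29b-2-5p were U11C and U19C, with positions counted in miR-29b-1-5p. The annotated start of the 2 strands differs by that 1 base, so their seeds differ too. None of the 4 strands from the 5′ arm had a seed in common with another of them.

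The genes lie in 2 pairs. Mir29a (ENSMUSG00000065610) is at chr6:31062660-31062747 and Mir29b-1 (ENSMUSG00000065604) at chr6:31063023-31063093, both on the minus strand and 275 bases apart. Mir29a overlaps no other annotated gene, and Mir29b-1 shares 2 of its 71 bases with an exon of the long noncoding RNA gene Gm27019 on its strand. Mir29b-2 (ENSMUSG00000065412) is at chr1:195037040-195037120 and Mir29c (ENSMUSG00000065548) at chr1:195037547-195037634, both on the plus strand and 426 bases apart. The whole of both lies in exon 3 of a transcript of the noncoding gene A330023F24Rik that is annotated as a retained intron. On the opposite strand, both lie in the untranslated part of exon 11 of the protein-coding gene Cd46, the gene of a complement regulator.

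Replicate 1 gave 4802411 reads on the own strand of miRNA genes and replicate 2 gave 4422853, and levels are given as reads per 1000000 of these (CPM). A count of 0 would allow up to 0.625 CPM in replicate 1 and 0.678 CPM in replicate 2 (3 counts). A further 3448592 and 2698981 reads mapped to several places. They were tallied apart and belong to none of the gene counts. The miRNA genes of the posterior body axis held 34.7% and 33.4% of gene reads, and the neural list 3637 and 4196 CPM with 5 of 7 genes detected, that is, with at least 10 reads in both libraries. Of the neural sum, Mir137 held 2541 and 3077 CPM. The counted Mir9 genes share every mature strand with another gene, and Mir124a has more than 1 gene. Their counts lack any read with several mapping places, as do those of some genes in the lists below. The sums of the lists therefore do not rank the cell types by amount. RNA of other cell types was also present. Endothelial Mir126a had 20304 and 18258 CPM, and the mesenchyme and smooth muscle list, with 6 of 7 genes detected, 16700 and 15540 CPM. The epithelial list summed to 2037 and 2097 CPM (4 of 4 detected), the muscle list to 882.1 and 519.6 (4 of 5), the leukocyte list to 217.8 and 187.2 (2 of 2), the erythroid list to 111.8 and 101.7 (3 of 3), and the liver gene Mir122 to 32.3 and 14.0. Of the muscle sum, Mir206 alone held 811.1 and 469.8 CPM. None of the counted cell type markers was at 0 in both libraries. Their part in the Mir29 levels was not tested. In whole tissue, fewer cells of a type and less RNA per cell cannot be told apart.

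Mir29c and Mir29a were present at low to moderate levels, and the 2 Mir29b genes had almost no reads assigned to them. Mir29c had 356 reads in replicate 1 and 377 in replicate 2, or 74.1 and 85.2 CPM, with exact 95% intervals of 66.6 to 82.2 and 76.9 to 94.3 CPM. Its mean was 79.7 ± 7.86 CPM (SD, n = 2). It was the highest member by assigned reads in both libraries. Mir29a had 137 and 212 reads, or 28.5 and 47.9 CPM, with intervals of 24.0 to 33.7 and 41.7 to 54.8 CPM, and a mean of 38.2 ± 13.7 CPM (SD, n = 2). The lower Mir29c value lay above the higher Mir29a value, so their levels did not overlap, while the replicates of Mir29a were further apart than those of Mir29c. With reads mapping to several places added to the denominator, the means were 48.0 CPM for Mir29c and 23.2 CPM for Mir29a. The intervals cover the counting error of reads only. Reads copied by PCR without molecular identifiers are not independent molecules, and for molecules such intervals are too narrow.

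**Figure D1:**
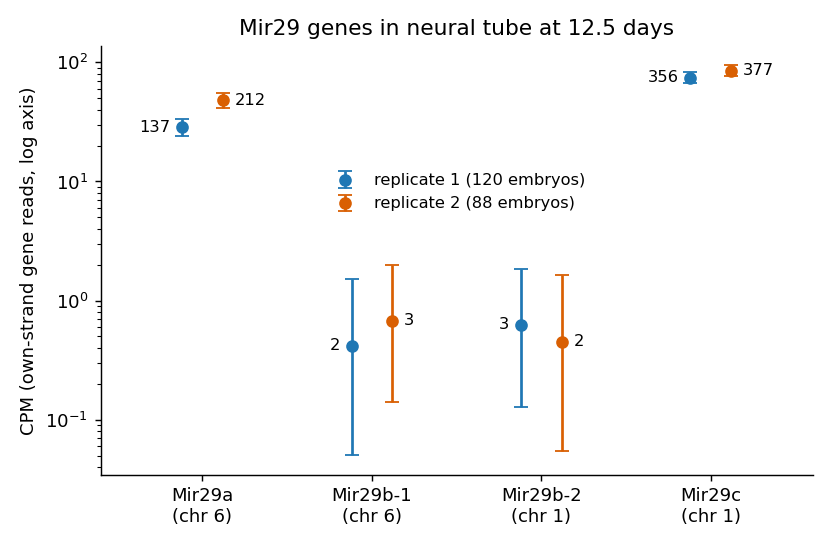
CPM of each Mir29 gene (log axis) in replicate 1 and replicate 2, with the number of reads beside each point and exact 95% binomial intervals as bars. In assigned reads, Mir29c (74.1 and 85.2 CPM) and Mir29a (28.5 and 47.9 CPM) stand far above Mir29b-1 and Mir29b-2, which had 2 or 3 each. The Mir29b counts lack any miR-29b-3p read with several mapping places.

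Mir29b-1 had 2 reads in replicate 1 and 3 in replicate 2, or 0.416 and 0.678 CPM. Mir29b-2 had 3 and 2 reads, or 0.625 and 0.452 CPM. Their means, 0.547 ± 0.185 and 0.538 ± 0.122 CPM (SD, n = 2), did not differ beyond their spread, and their order was reversed between the libraries. The exact interval of Mir29b-1 reached 1.50 CPM in replicate 1 and 1.98 CPM in replicate 2, and that of Mir29b-2 reached 1.83 and 1.63 CPM. Of the 4 members, 2 therefore passed the detection minimum and 2 did not, and of all 1973 counted genes 371 passed. The Mir29b counts are of reads assigned to 1 place. Since miR-29b-3p has 2 identical genomic sources, they give no measure of its amount, and the number of miR-29b-3p reads among those mapping to several places is not recorded in the counts.

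No read was assigned to the opposite strand of any member in either library. For Mir29b-2 and Mir29c this is also the strand of Cd46, and no fragment of the Cd46 message was therefore counted at their places.

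By assigned reads, the order was Mir29c, Mir29a and then the 2 Mir29b genes together. The Mir29b counts lack any miR-29b-3p read with several mapping places, so this order does not place the mature strand miR-29b-3p. The ratio of Mir29c to Mir29a was 2.60 in replicate 1 (exact 95% interval 2.13 to 3.19) and 1.78 in replicate 2 (1.50 to 2.11), with a mean of 2.19 ± 0.580 (SD, n = 2). Mir29c was thus above Mir29a in both libraries, by an amount that itself varied. The smallest p that a two-sided exact test over 2 libraries can reach is 0.5, so these ratios are descriptions. They compare reads rather than molecules, since the efficiency of capture of each sequence was not measured.

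Within each gene pair the ratio was far larger. Mir29a outnumbered its neighbour Mir29b-1 by 68.5 times in replicate 1 (18.6 to 571.3) and 70.7 times in replicate 2 (23.9 to 345.4). Mir29c outnumbered Mir29b-2 by 118.7 times (40.3 to 578.2) and 188.5 times (51.8 to 1562). The wide intervals follow from the 2 or 3 reads of each Mir29b gene. The lowest of these bounds was 18.6. How reads of the shared 3′ strand were assigned is not recorded, and any that mapped to several places are in neither Mir29b count. The pair on chromosome 1 had 2.58 and 1.76 times as many assigned reads as the pair on chromosome 6 (2.17 ± 0.580, SD, n = 2).

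Together the 4 genes had 498 reads in replicate 1 and 594 in replicate 2, which is 103.7 and 134.3 CPM, or 0.0104% and 0.0134% of gene reads. The mean share was 0.0119% ± 0.00216 (SD, n = 2). Of the family's assigned reads, Mir29c held 71.5% and 63.5%, Mir29a 27.5% and 35.7%, and the 2 Mir29b genes together 1.00% and 0.842%. Any miR-29b-3p read with several mapping places is in neither the family sum nor the Mir29b part. All of these shares are therefore of assigned reads only. Both arms of a hairpin enter the same gene count, and the share of the 3′ strand was not measured. As miR-29a-3p and miR-29c-3p differ at 1 base, a mapper that allows mismatches could also place reads of either at both genes, and the number of mismatches allowed is not given in the sources used here.

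Other genes that share a mature strand offer a scale for the Mir29b counts. Of the counted genes, 916 matched the RefSeq table by symbol, and 22 sets of 2 or 3 genes had 1 identical strand while each gene had another strand of its own. The Mir29b set had 5 reads in replicate 1 and 5 in replicate 2, the fifth lowest of the 22 by summed CPM (1.09, against a median of 200.2). In 15 sets every gene was detected, and in 5, Mir29b included, none was. The set of miR-128-3p, a neuronal miRNA, had 1953 and 1147 assigned reads, and that of miR-181a-5p 22565 and 24290. Which arm these reads came from was not measured. The 4 sets below Mir29b were those of miR-465a-3p, miR-344d-3p, miR-365-3p and miR-3070-5p, with 0 to 6 reads in a library. A further 34 genes had every annotated strand in common with another gene, and 8 of them were detected. The highest were Mir219a-2 with 31648 and 19897 reads, Mir9-3 with 1288 and 1318, and Mir199b with 1150 and 992. Reads were thus assigned to genes without a mature strand of their own in the table, and by what part of the hairpin is not recorded.

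**Figure D2:**
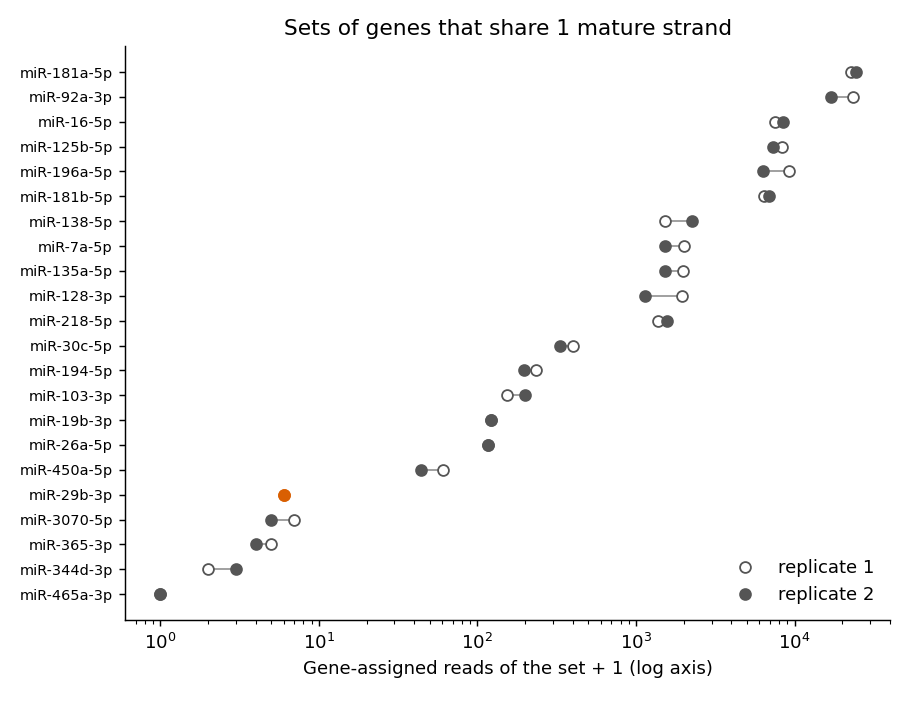
Gene-assigned reads plus 1 (log axis) of 22 sets of genes with 1 identical mature strand, open circles for replicate 1 and filled circles for replicate 2, with the Mir29b set in orange. Mir29b, with 5 reads in each library, is the fifth lowest set, and 15 of the 22 sets have every gene detected.

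Among all 371 detected genes, Mir29c ranked 210 and Mir29a 250 by mean CPM, at percentiles 43.7 and 32.9 counted from the lowest. Both were below the median of detected genes, 114.7 CPM. By library, Mir29c ranked 217 and 201, and Mir29a 267 and 234. Since 1237 counted genes had no read in either library, both stood above most counted miRNA genes: 1723 had a lower mean than Mir29a.

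**Figure D3:**
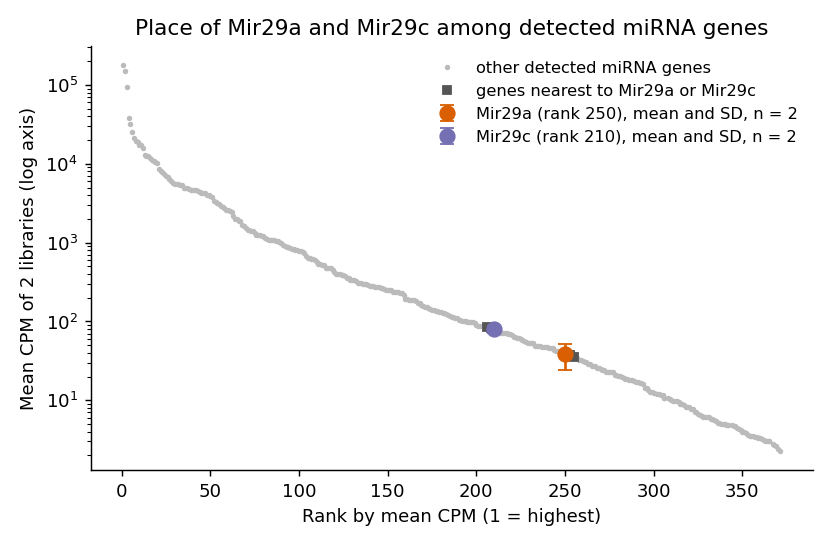
Mean CPM of 2 libraries (log axis) of the 371 detected miRNA genes against their rank, with the mean and SD of Mir29c (rank 210) and Mir29a (rank 250). Squares mark the 6 genes nearest in level to either, and both members lie in the lower part of the curve.

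The 3 detected genes with the level most like that of Mir29a, by Euclidean distance in log2(CPM + 1) over the 2 libraries, were Mir758, Mir103-2 and Mir190a, at distances of 0.15, 0.17 and 0.30. Mir758, of the imprinted Dlk1-Dio3 region, had 146 and 194 reads, or 30.4 and 43.9 CPM. Mir103-2 had 30.6 and 43.6 CPM, and Mir190a 31.7 and 39.8 CPM. Mir103-2 shares a mature strand with Mir103-1, so its count lacks any read with several mapping places. Nearest to Mir29c were Mir33 with 78.9 and 86.8 CPM (distance 0.09), Mir345 with 80.0 and 92.2 (0.16) and Mir412 with 81.6 and 78.9 (0.18). Over 2 libraries this measure compares levels and little else.

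The family was then set beside other miRNA genes of related roles. The 3 genes of the Mir148 and Mir152 family, which also target messages for DNA methyltransferases, were all detected and summed to 424.8 CPM in replicate 1 and 414.0 in replicate 2. This was 4.10 and 3.08 times the Mir29 sum (3.59 ± 0.717, SD, n = 2). The Mir29 sum lacks any miR-29b-3p read with several mapping places, so the ratio is of assigned reads only. Mir148a had 248.2 and 224.1 CPM, Mir148b 131.4 and 144.3, and Mir152 45.2 and 45.7. Mir29a lay below Mir152 in replicate 1 and above it in replicate 2, so these 2 genes did not differ in a constant direction, whereas Mir29c lay between Mir152 and Mir148b in both libraries.

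The list of genes of brain maturation held 14 miRNA genes that are prominent in mature neurons or glia. Of these, 12 were detected, and 9 had a mean above that of Mir29c. Of all 1973 counted genes, 371 were detected and 209 had a mean above that of Mir29c. The median over all 14 was 169.2 CPM. Over all 4 Mir29 genes it was 19.4 CPM, and over all counted genes it was 0. The Mir29 value rests in part on the 2 Mir29b genes, whose counts lack any miR-29b-3p read with several mapping places. Over detected genes alone, the median was 231.3 CPM for the list and 59.0 CPM for the Mir29 family. Mir219a-2, of the oligodendrocyte lineage, had 6590 and 4499 CPM, Mir139 2981 and 3439, Mir22 2897 and 2233, and Mir219a-1 400.2 and 390.2. Mir338, another oligodendrocyte gene, was at 77.7 and 76.0 CPM, within the range of Mir29c. Below Mir29a were Mir212 (27.7 and 23.7 CPM) and the 3 genes of the neuronal miRNA Mir124a, which had 1.46 to 10.8 CPM. Mir124a, Mir128, Mir138 and Mir219a likewise have more than 1 gene, and their counts also lack any read with several mapping places.

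Of the let-7 genes, whose mature forms accumulate as cells differentiate, 10 were found by symbol among the counted genes. The list took only genes found in this way, so it need not hold the whole family. All 10 were detected, and none had a mean below that of Mir29a. Their sum was 416.9 times that of the Mir29 genes in replicate 1 and 289.2 times in replicate 2. Mirlet7g had 17388 and 17704 CPM and Mirlet7i 18691 and 15645, while the lowest, Mirlet7a-1, had 56.0 and 43.0 CPM. In assigned reads, Mir29c exceeded Mirlet7a-1 in both libraries and Mir29a did so in replicate 2 only. Mirlet7a-1 shares a mature strand with another gene, as do some other let-7 genes. Their counts lack any read with several mapping places, so this order does not compare the amounts of the mature strands. The list of proliferating progenitors held the Mir17 cluster, the Mir106b, Mir93 and Mir25 genes and Mir92b, and not the related cluster on the X chromosome. It summed to 658.8 and 550.2 times the Mir29 genes, with 10 of 10 detected and 9 above Mir29c. For this list and for let-7, the Mir29 sum again lacks any miR-29b-3p read with several mapping places. Mir17 had 23491 and 27570 CPM. Mir19b-1, which shares its 3′ strand with Mir19b-2, was the 1 member of this list below Mir29a, with 19.2 and 22.4 CPM. Mir19b-2, outside the list, had 5.83 and 4.97 CPM.

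**Figure D4:**
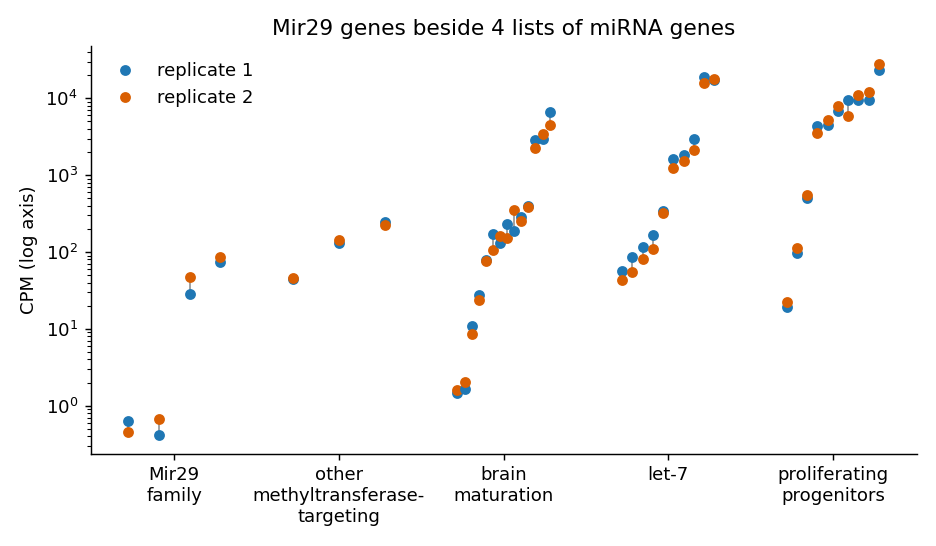
CPM (log axis) of each gene of the Mir29 family and of 4 lists, in replicate 1 (blue) and replicate 2 (orange), with a line joining the libraries of a gene and genes ordered by level within a list. Mir29c and Mir29a lie among the lower genes of the other lists, and the 2 Mir29b genes lie below all of them in assigned reads.

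Between the libraries, both detected Mir29 genes were higher in replicate 2, and neither reached the 2-fold minimum. A gene was called with an adjusted p under 0.05 (two-sided exact binomial test on counts with TMM-scaled totals, Benjamini-Hochberg over 371 detected genes) and at least 2-fold. By that rule 2.70% of genes were called (0.270% as higher in replicate 2), and 0 of the 2 detected Mir29 genes. Without a fold minimum 53.1% of genes passed, and 27.0% of genes passed as higher in replicate 2. Both Mir29 genes passed in that direction, and 2 genes against such a background are no result about the family. Mir29a, with 28.5 against 47.9 CPM, was 1.73-fold higher in replicate 2 (log2 ratio of replicate 1 to replicate 2 -0.79, adjusted p = 1.65e-06, exact binomial test). Mir29c was 1.18-fold higher (log2 ratio -0.24, adjusted p = 0.0499, exact binomial test). Its adjusted p is at the threshold and ran from 0.0420 with DESeq2 size factors to 0.104 with library totals, over 5 alternative settings of the exact binomial test.

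The distance between the libraries was larger for Mir29a than for most genes. The common coefficient of variation of the detected genes (edgeR) was 16.4%, equal to an SD of 0.33 between 2 libraries on the log2 scale, and the median absolute log2 ratio was 0.24. Mir29a exceeded both and ranked 21 of 371 by absolute log2 ratio. In its direction, higher in replicate 2, 6 genes had a ratio at least as large, Mir29a included. Mir29c, in contrast, ranked 184, near the middle. The test covers counting error alone and compares 2 pools of 1 tissue, so it does not show a difference beyond replicate error.

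Other genes differed between the pools in the same comparison. Of all detected genes, 26.1% passed without a fold minimum as higher in replicate 1 and 27.0% as higher in replicate 2. Of the 10 let-7 genes, 8 passed as higher in replicate 1 and 1 as higher in replicate 2 (median log2 ratio 0.34, against 0.00 over all detected genes). Of the 10 progenitor genes, 2 passed as higher in replicate 1 and 7 as higher in replicate 2 (median -0.26). Of the 12 detected genes of brain maturation, 5 passed as higher in replicate 1 and 3 as higher in replicate 2 (median 0.16), and of the 4 detected muscle markers, 2 passed as higher in replicate 1 and 0 as higher in replicate 2 (median 0.65). No member of these 4 lists was called at 2-fold. Of the other cell type markers, the liver gene Mir122 was called, with 32.3 CPM in replicate 1 against 14.0 in replicate 2, a 2.24-fold difference. The part of these genes in the Mir29a ratio was not tested.

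**Figure D5:**
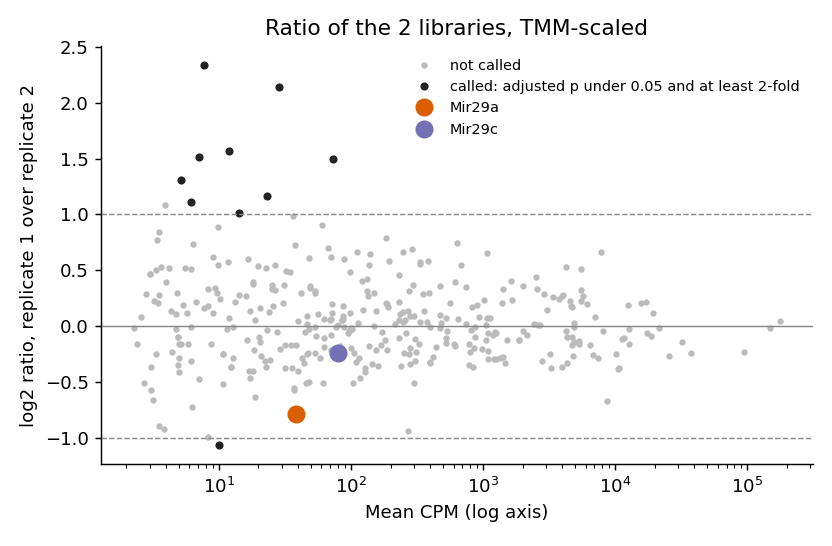
TMM-scaled log2 ratio of replicate 1 to replicate 2 against mean CPM (log axis) for 371 detected genes, with the 10 called genes in black and dashed lines at 2-fold. Mir29a (-0.79) lies near the lower edge of the points and Mir29c (-0.24) within them, and both are inside the 2-fold lines.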

How the data were processed

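MicroRNA libraries (size range under 30, per the labels) of 2 embryo pools were used. For each miRNA gene the authors deposited raw read counts, for both strands and each strand alone, made on mm10 with annotation M4, per the descriptions deposited with the counts. Which aligner, counter and trimming were used is not given in the sources used here. The 4 rows naming no gene were left out of totals. Reads mapping to several places made up 27.0% and 28.6% of all reads in replicates 1 and 2, unmapped reads 27.3% and 20.0%, and reads on no feature 8.04% and 4.45%.

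The first of the 2 single-strand columns was read as the own strand. It held 4802411 and 4422853 gene reads in replicates 1 and 2, against 84152 and 66438 in the other. Of 1973 identifiers, 1894 matched GENCODE M21. CPM used own-strand totals, with a pseudocount of 1 on the log scale. Intervals are exact binomial (Clopper-Pearson, 95%). With a single group there was no contrast for edgeR's quasi-likelihood test. The libraries were compared by exact binomial tests on TMM-scaled totals (edgeR 4.0.16, R 4.3.3), with DESeq2 1.42.0 size factors as an alternative. The test was also run on simulated counts that held counting error alone, as the test itself assumes. That run cannot show the rate of false calls in libraries with further spread. Python 3.11.15, numpy 2.4.6, pandas 2.3.3, scipy 1.17.1 and matplotlib 3.10.9 were used. P-values measure only the spread of counting, not of animals.

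Members and lists were chosen with earlier results of these data known. Besides the members, the genes named are the 3 nearest in level to each detected one and, from each list, up to 4 genes highest in mean CPM. Others (Mir338, Mir212, Mir124a, Mirlet7a-1, Mir19b-1, Mir19b-2, Mir122, Mir126a, Mir9-3, Mir199b and the sets of genes sharing a strand) were named after their values were seen. Not analysed here were the entries Mir9-1 and Mir142, which matched no counted gene by symbol.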

Additional observations from a re-analysis of the deposited data

How the results depend on the processing

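Adding the reads that mapped to several places to the denominator, and to no gene count, lowers every level by construction. The family share became 0.00719%, Mir29c 48.0 CPM, Mir29a 23.2, Mir29b-1 0.332 and Mir29b-2 0.322. Ratios between genes cannot change by this addition. The both-strand column and TMM-scaled library sizes moved no level or ratio by as much as 1 SD. Leaving out 1 library gave the single values of the other: 0.0104% to 0.0134% for the family, 28.5 to 47.9 CPM for Mir29a, and 0.385 to 0.562 for the ratio of Mir29a to Mir29c. The 10 genes called at 2-fold became 2 when 100 reads were required in both libraries, which left 269 genes to test. Mir29a passed the exact binomial test under all 5 alternatives without a fold minimum. Mir29c did not pass with library totals (log2 ratio -0.20, adjusted p = 0.104, exact binomial test), with at least 1 read in either library (-0.27, adjusted p = 0.0513) or with at least 100 reads in both (-0.20, adjusted p = 0.0913). With at least 1 read in either library as the minimum, the percentiles rose to 71.6 for Mir29c and 66.2 for Mir29a, among 736 genes. With 2 or 3 reads each, a difference between the 2 Mir29b genes was not detectable at this depth.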

Other observations

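The 2 Mir29b genes were below the minimum of the library comparison. When every gene with at least 1 read in either library was tested, Mir29b-1 had a log2 ratio of replicate 1 to replicate 2 of -0.77 (adjusted p = 0.941, exact binomial test) and Mir29b-2 one of 0.40 (adjusted p = 1). Outside the family, 1 other strand of the 1738 had AGCACC at bases 2 to 7, that of miR-3102-3p, and 2 others held AGCACCA elsewhere, miR-770-5p and miR-3547-3p. The seed of miR-29b-2-5p, UGGUUUC, was shared with 1 other gene, Mir6338.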
